A study of Homo sapiens with 8 samples.

Results

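NFE2L2, which encodes the transcription factor NRF2, its inhibitor KEAP1 and 7 transcripts known as NRF2 targets (NQO1, TXNRD1, SRXN1, OSGIN1, PGD, TALDO1 and TKT) were followed by RNA sequencing in LNCaP prostate cancer cells with lowered or restored METTL3, the enzyme that places the methyl mark of adenosine on messenger RNA. The 9 genes were chosen with earlier results of these data known. They were taken by symbol from a table of 27140 genes, and all 9 were among the 15289 with enough counts to be tested. NFE2L2 and 6 of the 7 targets stood highest in cells that carry a catalytically dead METTL3, and KEAP1 stood lowest there. The differences were small, and the widest was that of OSGIN1, 106% above the control.

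LNCaP is an established line from a human prostate adenocarcinoma. The control line carried a control hairpin and a vector, and the knockdown line a hairpin against METTL3 and a vector. The wild-type rescue and the mutant rescue carried the METTL3 hairpin together with a METTL3 that the hairpin does not recognise, either active or without catalytic activity. Each group was 1 stable line with 2 libraries, all made by lentiviral transduction and selection with puromycin at 1 µg/ml, without a stated treatment that would activate NRF2. The labels do not say whether the lines are clones or whether both libraries came from cultures grown apart, so p-values measure the spread between these libraries, which may be technical. METTL3 transcript was at 68.4 and 68.5 CPM in the control libraries, 26.2 and 31.3 in the knockdown, 309 and 325 in the wild-type rescue and 333 and 334 in the mutant rescue. Both rescues thus held more METTL3 transcript than the control, and they differed from each other by 0.07 on the log2 scale (SE 0.03, adjusted p = 0.0161).

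CPM are read counts scaled to a common library size, and a gene was called where the adjusted p of edgeR's quasi-likelihood test was under 0.05. A lone value in parentheses after an alternative setting is the adjusted p under it. Libraries held 15200343 to 17893241 counts. All 9 luminal prostate markers checked, among them KLK3, KLK2 and KRT8, were at 1 CPM or more in every library, with a summed level of 7592 to 7893 CPM in the hairpin and rescue lines and 9434 to 9482 in the control. Of 16 markers of other cells (basal, mesenchymal, stromal, immune or other prostate lines), 7 to 9 reached 1 CPM in 7 libraries. In replicate 1 of the wild-type rescue 12 did. Their summed level was 678 to 751 CPM throughout, most of it from FN1. COL1A1 was at 76.3 to 103 CPM and CD68 at 15.5 to 26.2 CPM, whereas KRT5, COL1A2 and PTPRC were at or near 0. In each library 2 to 3 of the 16 were at 0. In replicate 1 of the wild-type rescue S100A6 had 77 counts against 6 to 17 in the other 7 libraries, GSTP1 38 against 4 to 10, and the aldo-keto reductase AKR1B1 72 against 8 to 12. Because that library stands apart in such genes, changes that involve the wild-type rescue are also given without it where a call ends. The part of these transcripts in the results was not tested. In bulk RNA, fewer cells of a type and less RNA per cell cannot be told apart.

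In resting cells KEAP1 holds NRF2 for a CUL3 ubiquitin ligase that sends it to the proteasome. Electrophiles and oxidants modify KEAP1, NRF2 escapes, enters the nucleus with a small MAF partner and switches on genes that carry an antioxidant response element. NRF2 is governed largely at the level of protein, so its transcript does not report its activity. The targets fall into enzymes that spend reducing power on quinones, thioredoxin and oxidised peroxiredoxins (NQO1, TXNRD1, SRXN1), a regulator of growth and survival induced by oxidative stress (OSGIN1), and the pentose phosphate pathway (PGD, TALDO1, TKT). Of these only PGD makes NADPH itself. TKT and TALDO1 run the non-oxidative branch that returns pentoses to glycolysis, and NQO1 and TXNRD1 consume NADPH or NADH.

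Promoter stretches are shown for 3 targets that rose in the mutant rescue: TXNRD1 and PGD, which hold the core letters of the antioxidant response element through which NRF2 acts, and OSGIN1, which holds the letters of the related AP-1 element instead. The core TGACNNNGC was searched on both strands in the 250 bases before each start in RefSeq's table (GRCh38.p14), which lists 12 starts for the 9 genes. It lay before 4 of these 12 starts (33.3%), those of PGD, TXNRD1 (both listed starts) and 1 of KEAP1, against 10.9% of all 35116 windows. The AP-1 element TGANTCA, which can share letters with that core but shared none here, lay before 1 of the 12 (8.33%), that of OSGIN1, against 6.57% of all windows. The stretch of TXNRD1 is at chr12:104215654-104215723 (plus strand), with its core beginning 99 bases before the start. That of PGD is at chr1:10398837-10398906 (plus strand), where the core begins 201 bases before the start and reads on the other strand. That of OSGIN1, with the AP-1 letters in capitals 97 bases before the start, is at chr16:83953117-83953186 (plus strand). All 3 are written 5′ to 3′ on the strand of the gene. Capitals mark the matched letters, which are not a measured binding site. Neither motif was found in the windows of NFE2L2, NQO1, SRXN1, TALDO1 and TKT.
TXNRD1: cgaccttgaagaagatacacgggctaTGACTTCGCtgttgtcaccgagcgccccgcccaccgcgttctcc
PGD: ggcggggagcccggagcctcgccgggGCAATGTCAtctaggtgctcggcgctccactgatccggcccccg
OSGIN1: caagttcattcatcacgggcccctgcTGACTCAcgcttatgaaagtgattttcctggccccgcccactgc

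Per length the 9 transcripts covered a wide range. In the control, in RPKM (CPM divided by gene length in kilobases, mean ± SD, n = 2), TKT stood at 200.2 ± 3.63, TALDO1 at 166 ± 1.23, TXNRD1 at 157 ± 0.0363, PGD at 83.6 ± 1.10, NQO1 at 65.7 ± 2.55, SRXN1 at 56.6 ± 0.444, KEAP1 at 28.1 ± 0.208, NFE2L2 at 20.5 ± 0.840 and OSGIN1 at 4.31 ± 0.354. Averaged over the 8 libraries, TKT, TXNRD1 and TALDO1 lay between the 98.2 and 98.6 percentiles of all tested genes on this scale, and OSGIN1, the least abundant, at the 43.3 percentile. The 2 pentose phosphate transcripts of the non-oxidative branch were thus each more abundant than PGD. By the GENCODE annotation (GRCh38) a gene that is also in the count table by name shares exon bases only with NFE2L2, on the opposite strand (AGPS, 1.19% of exon bases). Genes not in the count table by name share more. On the same strand AL121758.1 shares 85% of SRXN1 exon bases, AC019080.1 10.8% of NFE2L2 and AC009119.2 9.7% of OSGIN1. On the opposite strand AC092115.2 shares 18.4% of NQO1. The sources used here do not say whether strand was used in counting, and the part of these overlaps in the counts was not tested.

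The rescue lines differ by their labels in whether the introduced METTL3 is active. Each rescue is 1 line and held more METTL3 transcript than the control. Whether differences between the rescues depend on that activity was not tested apart from other differences between the lines. Between the wild-type rescue and the knockdown 1 of the 9 genes was called (TALDO1). Those lines differ in the amount of METTL3 transcript and in the construct carried, and the part of each was not tested. With the dead enzyme, relative to the active one, 7 of the 9 genes rose (NFE2L2, NQO1, TXNRD1, SRXN1, OSGIN1, PGD and TKT), where 21.0% of all tested genes rose. Because the 9 were chosen with earlier results of these data known, shares of all genes are given for description only. KEAP1 fell, where 20.3% of all genes fell, and TALDO1 was not called, so that 8 of 9 were called beside 41.3% of all genes. The call of KEAP1 was at the edge of the threshold (adjusted p = 0.0478) and ended in several alternative settings, given below. By library, 8 of the 9 genes did not overlap between the lines, where 67.7% of all genes did not. The median log2 fold change over the 9 genes was 0.21, beside 0.00 over all genes tested, and the median absolute change 0.21 beside 0.17. The 7 rises were called in each of the 14 alternative settings tried, including without replicate 1 of the wild-type rescue, where they ranged from 0.14 (PGD) to 0.59 (OSGIN1).

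**Figure D1:**
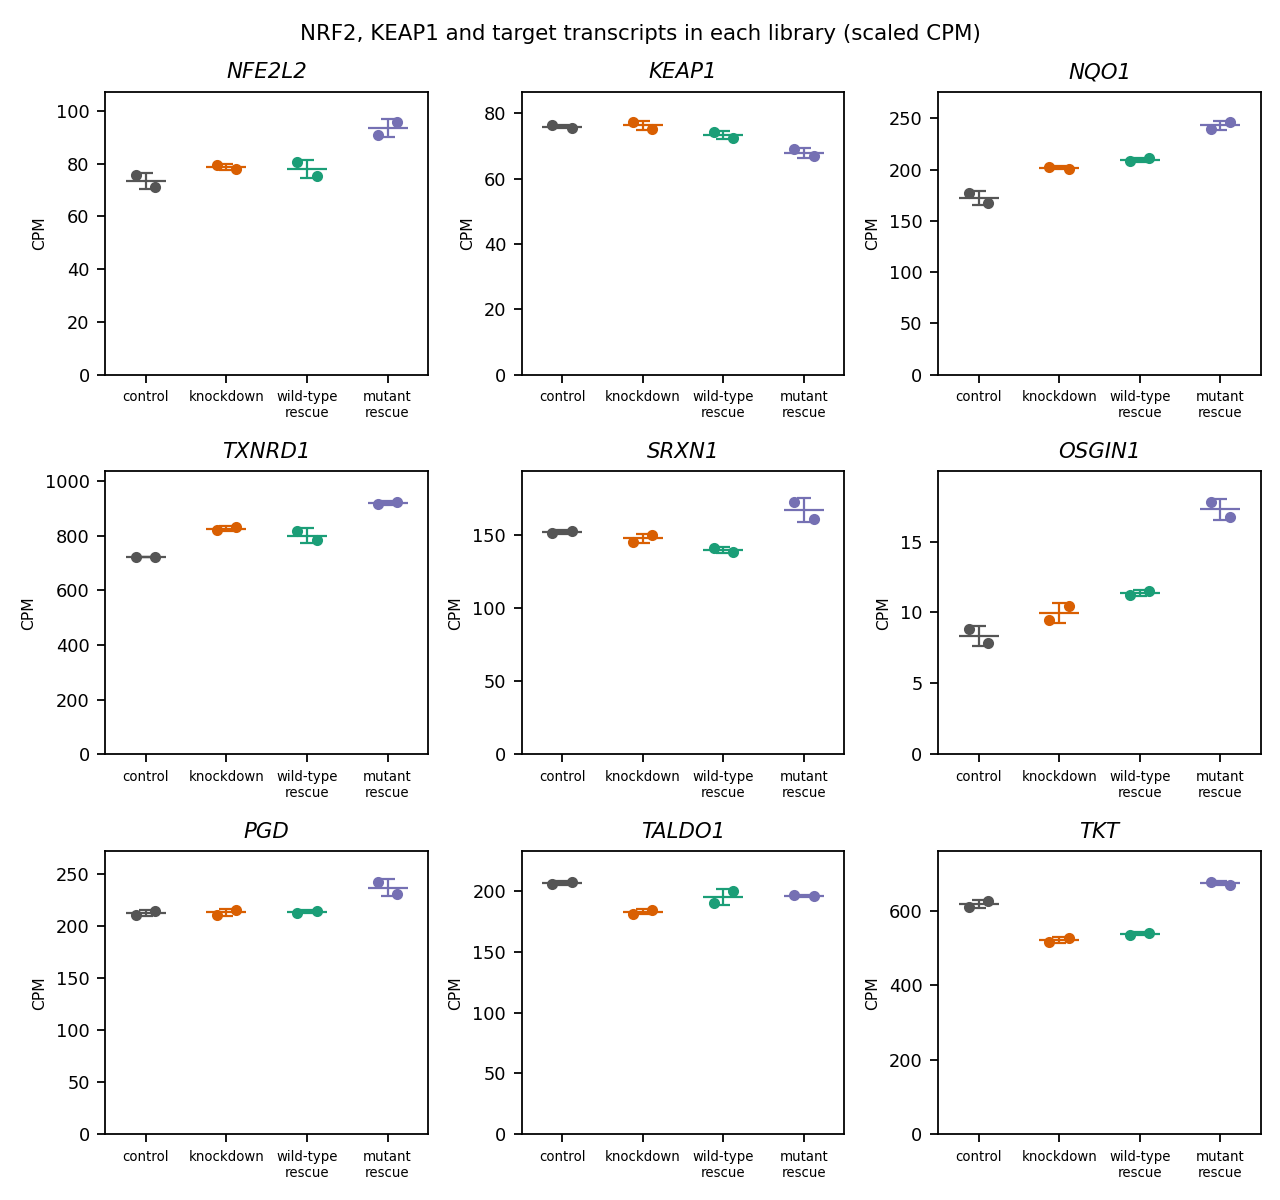
Level of each transcript in CPM (vertical axes, each starting at 0) in the 4 lines (horizontal axes); points are libraries, bars the mean and SD of 2. In NFE2L2, NQO1, TXNRD1, SRXN1, OSGIN1, PGD and TKT both mutant rescue libraries lie above the other 6, and in KEAP1 both lie below them.

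Among the regulators, NFE2L2 was at 75.6 and 71.3 CPM in the control, 79.4 and 77.8 in the knockdown, 80.5 and 75.4 in the wild-type rescue and 91.0 and 95.8 in the mutant rescue. Both mutant rescue libraries were above the other 6, and the wild-type rescue overlapped with both control and knockdown. The log2 fold change was 0.26 (SE 0.04, adjusted p = 1.70e-07) against the wild-type rescue, 0.25 (SE 0.04, adjusted p = 4.67e-07) against the knockdown and 0.35 (SE 0.05, adjusted p = 9.27e-12) against the control. These comparisons share the mutant rescue libraries and are not independent of each other. Control, wild-type rescue and knockdown, in rising order, did not pass the test between neighbours, but wild-type rescue against control did with the length trend removed (0.0406) and without wild-type rescue replicate 2 (0.0444). On knockdown NFE2L2 was at 0.10 (SE 0.05, adjusted p = 0.0630), just outside the threshold, and it passed with DESeq2 size factors (0.0467), in a fit of only these lines (0.0288), with the length trend removed (0.0170) and without control replicate 1 (0.0238).

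KEAP1, the adaptor that presents NRF2 for degradation, ran the other way. Its levels were 76.4 and 75.6 CPM in the control, 77.3 and 75.3 in the knockdown, 74.2 and 72.6 in the wild-type rescue and 69.0 and 66.9 in the mutant rescue, and the mutant rescue libraries were below the other 6. KEAP1 fell in the mutant rescue by 0.17 on the log2 scale against the knockdown (SE 0.05, adjusted p = 0.00127) and by 0.16 against the control (SE 0.05, adjusted p = 0.00194). Against the wild-type rescue its change of -0.11 (SE 0.05, adjusted p = 0.0478) sat at the edge of the threshold: it was not called by DESeq2 (0.193), without a filter on low counts (0.0995), with the length trend removed (0.0556) or without any single library of the control or of either rescue (0.0514 to 0.237). The ratio of NFE2L2 to KEAP1 per length was 0.746 and 0.711 in the control libraries, 0.774 and 0.779 in the knockdown, 0.817 and 0.783 in the wild-type rescue and 0.994 and 1.08 in the mutant rescue. The regulator and its inhibitor were thus near parity per length in the mutant rescue, and NFE2L2 was the lower in the other lines. This ratio was not tested.

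NQO1, which reduces quinones in a single step that avoids reactive semiquinones, was at 177 and 168 CPM in the control, 203 and 201 in the knockdown, 208 and 211 in the wild-type rescue and 239.6 and 246 in the mutant rescue. No library of the control overlapped with any other line, and the mutant rescue was above all others. NQO1 rose on knockdown by 0.23 (SE 0.03, adjusted p = 2.22e-11). It did not pass the test in the wild-type rescue against the knockdown (0.05, SE 0.03, adjusted p = 0.172). It was higher in the mutant than in the wild-type rescue by 0.21 (SE 0.03, adjusted p = 2.52e-11). Against the control the mutant rescue stood at 0.49 (SE 0.03, adjusted p = 7.85e-36), a rise of 40.8%.

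TXNRD1, the cytosolic reductase that recharges thioredoxin with electrons from NADPH, showed the same order of control below and mutant rescue above. Its levels were 723 and 723 CPM in the control, 819.6 and 831 in the knockdown, 819 and 783 in the wild-type rescue and 915 and 924 in the mutant rescue. Control was lowest, mutant rescue highest, and knockdown and wild-type rescue lay between without overlap, with their nearest libraries less than 1 CPM apart. It rose by 0.19 (SE 0.02, adjusted p = 3.15e-16) on knockdown and by 0.20 (SE 0.02, adjusted p = 1.26e-17) between the rescues. In the wild-type rescue against the knockdown its change was -0.04 (SE 0.02, adjusted p = 0.0862), and without wild-type rescue replicate 1 it was -0.08.

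SRXN1, which repairs over-oxidised peroxiredoxins, was at 151 and 153 CPM in the control, 146 and 150.0 in the knockdown, 141 and 138 in the wild-type rescue and 173 and 161 in the mutant rescue, with no overlap between any 2 lines. On knockdown SRXN1 did not pass the test (-0.04, SE 0.03, adjusted p = 0.286), and it was lower in the wild-type rescue than in the control (-0.12, SE 0.03, adjusted p = 9.13e-04). It rose between the rescues by 0.26 (SE 0.03, adjusted p = 1.36e-11). Its rise over the control (0.13, SE 0.03, adjusted p = 1.92e-04) was not called without mutant rescue replicate 1 (0.0651).

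OSGIN1 had the widest range, on 125 to 269 counts a library. It was at 8.84 and 7.87 CPM in the control, 9.48 and 10.5 in the knockdown, 11.2 and 11.5 in the wild-type rescue and 17.8 and 16.7 in the mutant rescue, with no overlap between any 2 lines. The mutant rescue was 51.9% above the wild-type rescue (log2 fold change 0.60, SE 0.10, adjusted p = 1.99e-07) and 106% above the control (1.05, SE 0.11, adjusted p = 4.39e-16). The wild-type rescue was above the control as well (0.44, SE 0.12, adjusted p = 9.26e-04). The lesser steps between control and knockdown (0.25, SE 0.12, adjusted p = 0.0814) and between knockdown and wild-type rescue (0.19, SE 0.11, adjusted p = 0.234) did not pass the test, although with the length trend removed the first did (0.0363).

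The pentose phosphate transcripts did not move as a unit. PGD, 6-phosphogluconate dehydrogenase, the second NADPH-producing step of the oxidative branch, was at 211 and 215 CPM in the control, 211 and 215 in the knockdown, 213 and 215 in the wild-type rescue and 243 and 231 in the mutant rescue. The first 3 lines overlapped, and the mutant rescue was higher than each, by 0.15 (SE 0.03, adjusted p = 2.45e-06) against the wild-type rescue and 0.16 (SE 0.03, adjusted p = 3.49e-07) against the control. TKT, transketolase, was at 611 and 627 CPM in the control, 515 and 526 in the knockdown, 536 and 541 in the wild-type rescue and 679 and 670.3 in the mutant rescue, with no overlap between any 2 lines. TKT fell on knockdown by 0.25 on the log2 scale (SE 0.02, adjusted p = 3.23e-22). In the mutant rescue it rose by 0.32 (SE 0.02, adjusted p = 6.52e-32) against the wild-type rescue and by 0.37 (SE 0.02, adjusted p = 4.63e-38) against the knockdown. It ended above the control there (0.12, SE 0.02, adjusted p = 3.64e-08), whereas the wild-type rescue stayed below the control (-0.20, SE 0.02, adjusted p = 2.88e-16).

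TALDO1, transaldolase, which acts next to TKT, was at 206 and 208 CPM in the control, 181 and 185 in the knockdown, 191 and 200.1 in the wild-type rescue and 196 and 196 in the mutant rescue. It fell on knockdown, as TKT did, by 0.18 on the log2 scale (SE 0.03, adjusted p = 7.65e-08). Between the rescues its log2 fold change was 0.00 (SE 0.03, adjusted p = 0.950), and the mutant rescue libraries lay between those of the wild-type rescue. It was called higher than the knockdown in both rescues, by 0.10 (SE 0.03, adjusted p = 0.00793) in the wild type and 0.10 (SE 0.03, adjusted p = 0.00274) in the mutant. Both calls ended with the length trend removed (0.948 and 0.639) and with DESeq2 (0.117 and 0.0640), and the first also without knockdown replicate 1 (0.109) or wild-type rescue replicate 2 (0.301).

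**Figure D2:**
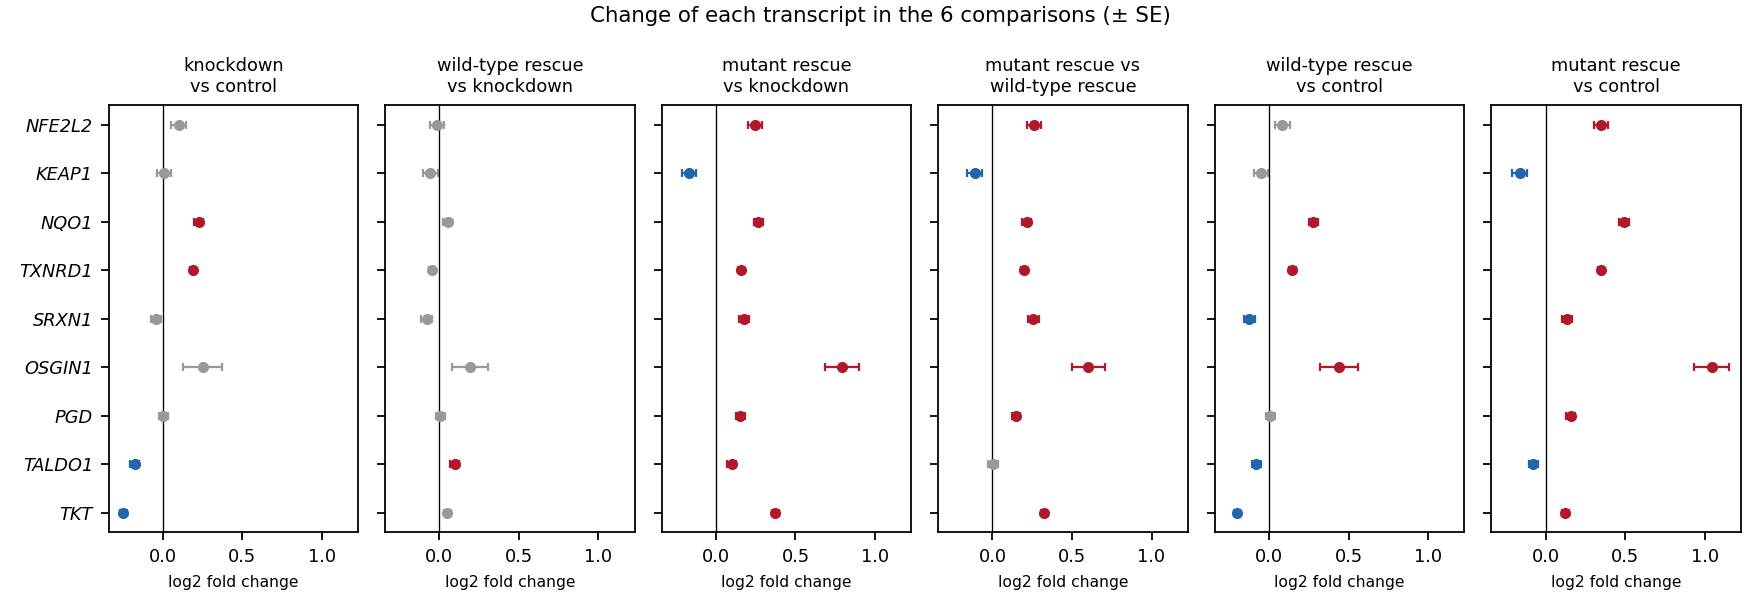
Log2 fold change (horizontal axis, bars are SE) of the 9 genes (vertical axis) in the 6 comparisons; red marks genes called higher, blue called lower and grey not called. The mutant rescue has mostly red points against each other line, whereas the wild-type rescue against the knockdown has mostly grey ones.

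On knockdown, against the control, NQO1 and TXNRD1 rose and TALDO1 and TKT fell, with 5 genes not called. The 4 calls of 9 lie close to the background, since 48.0% of all genes were called in this comparison (22.9% up and 25.1% down). Likewise 7 of the 9 genes did not overlap between the lines, where 72.5% of all genes did not. The median log2 fold change of the 9 genes was 0.01, beside -0.01 over all genes.

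In the wild-type rescue against the knockdown, 1 of the 9 genes was called, TALDO1, where 24.0% of all genes were called (10.8% up and 13.2% down). By library, 7 of the 9 genes did not overlap between the lines, where 57.7% of all genes did not. The median absolute log2 fold change was 0.05, beside 0.11 over all genes. By edgeR with TMM scaling, all 8 libraries and no correction for gene length, no member was called lower. There 2 (SRXN1 and TXNRD1) were lower at an unadjusted p under 0.05, and DESeq2 called 0 lower. SRXN1 was called lower by edgeR with DESeq2 size factors (-0.08, adjusted p = 0.0493). With the length trend removed SRXN1 was the gene called (-0.11, adjusted p = 0.00998) and TALDO1 was not (0.00, adjusted p = 0.948). Without wild-type rescue replicate 1, TXNRD1 was lower, at -0.08. Against the control the wild-type rescue had NQO1 (0.28, SE 0.03), TXNRD1 (0.15, SE 0.02) and OSGIN1 higher and TKT, SRXN1 and TALDO1 lower, 6 calls of 9 where 49.3% of all genes were called (23.8% up and 25.5% down), and 7 of the 9 genes did not overlap between the lines, where 72.7% of all genes did not. The call of TALDO1 there ended with DESeq2 (0.136), without either control library (0.0644 and 0.162) and without wild-type rescue replicate 1 (0.271).

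In the mutant rescue every member was called against the knockdown. Against the knockdown 8 rose, where 25.9% of all genes did, and KEAP1 fell, where 25.8% did, 9 calls of 9 beside 51.7% of all genes. Libraries of 9 of the 9 genes did not overlap between the lines, where 74.0% of all genes did not. The rises ran from 0.10 in TALDO1 to 0.79 in OSGIN1, and the median log2 fold change was 0.18, beside 0.00 over all genes. The median absolute change, 0.18, was below that of all genes, 0.22. Against the control 7 rose, where 29.1% of all genes did, and KEAP1 and TALDO1 fell, where 29.7% did, again 9 calls of 9 beside 58.8%. Here too 9 of the 9 genes did not overlap between the lines, where 77.7% of all genes did not. The median absolute change was again below that of all genes, 0.16 beside 0.26. The fall of TALDO1 there (-0.08, SE 0.03, adjusted p = 0.0171) was not called by DESeq2 (0.138), without a filter on low counts (0.0532), without either control library (0.0771 and 0.187) or without mutant rescue replicate 2 (0.0729).

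Other known NRF2 targets were read from a list of 32 genes, of which 28 were tested. Between the rescues 12 rose with the mutant, 3 fell and 13 were not called, where 21.0% of all genes rose and 20.3% fell. The median was 0.09 on the log2 scale. HMOX1, which breaks down heme, rose by 0.97 (SE 0.05), FTH1, the ferritin heavy chain that stores iron, by 0.57 (SE 0.02), and SLC7A11, which imports cystine for glutathione, by 0.47 (SE 0.04). GSTA4, a glutathione transferase for lipid aldehydes, fell by 0.29 (SE 0.06). On knockdown 7 of these genes rose and 8 fell, beside 22.9% and 25.1% of all genes. HMOX1 was higher by 1.00 (SE 0.07) and GSTA4 by 0.58 (SE 0.06). ABCC4, an efflux pump, was lower at -0.76 (SE 0.02), and GCLM, the regulatory subunit of glutathione synthesis, at -0.59 (SE 0.05). GPX2, a glutathione peroxidase with 14 to 34 counts a library, was at -0.86 (SE 0.36, adjusted p = 0.0415). Its counts were 16 and 34 in the control and 15 and 14 in the knockdown, so this fall rests mainly on 1 control library. AKR1B1, AKR1C2 and AKR1C3, named after their values were seen, were not called between the rescues, and wild-type rescue replicate 1 held 72, 64 and 44 counts of them, against 10, 7 and 8 in replicate 2. AKR1C family members are near-identical in sequence, so reads may be split between them. Without that library 14 genes of the list rose and 2 fell between the rescues, and without replicate 2 of that line 11 rose and 6 fell.

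Of 16 partners and regulators of NRF2, 15 were tested. Between the rescues 7 rose and 2 fell, where 21.0% of all genes rose and 20.3% fell. MAFF and MAFG, small MAF proteins that pair with NRF2 on DNA, rose by 0.59 (SE 0.12) and 0.38 (SE 0.05), and SYVN1, a ubiquitin ligase of the endoplasmic reticulum that can target NRF2, by 0.33 (SE 0.04). DPP3, a peptidase that binds KEAP1, fell by 0.50 (SE 0.06), and BTRC, a ligase adaptor that can recognise NRF2 apart from KEAP1, by 0.20 (SE 0.07). On knockdown 3 rose and 7 fell, beside 22.9% and 25.1% of all genes, with MAFK, the third small MAF, at -0.68 (SE 0.05) and SQSTM1, the autophagy receptor that draws KEAP1 away from NRF2, at -0.31 (SE 0.02). DESeq2, or leaving out wild-type rescue replicate 2 or mutant rescue replicate 1, left 1 fall between the rescues.

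The thioredoxin and peroxiredoxin genes around TXNRD1 and SRXN1 showed mixed directions. Of 15 tested, 2 rose and 6 fell between the rescues, where 21.0% of all genes rose and 20.3% fell, and the median was -0.05. The risers were SESN2 (0.50, SE 0.05) and SESN1 (0.27, SE 0.05), stress-induced sestrins. TXNIP, an inhibitor of thioredoxin, had the largest fall in the list, 0.91 (SE 0.03), after a rise of 1.55 (SE 0.03) on knockdown. PRDX4, the peroxiredoxin of the secretory pathway, fell between the rescues as well (-0.24, SE 0.04). On knockdown 8 of these genes rose and 4 fell, beside 22.9% and 25.1% of all genes, with SESN3 at 0.72 (SE 0.02) and the mitochondrial reductase TXNRD2 at 0.50 (SE 0.04). DESeq2 called 2 falls on knockdown in this list.

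Among 11 other pentose phosphate pathway genes, 3 rose and 4 fell between the rescues, where 21.0% of all genes rose and 20.3% fell. The sedoheptulose kinase SHPK rose by 0.19 (SE 0.06) and H6PD, of the endoplasmic reticulum, by 0.10 (SE 0.03). PRPS1, which makes the ribose donor of nucleotides, fell by 0.32 (SE 0.04), and the ribokinase RBKS by 0.80 (SE 0.25). On knockdown 3 fell, beside 25.1% of all genes, among them PGLS (-0.26, SE 0.05) and PRPS1 (-0.23, SE 0.04), and the other 8 were not called. Between the rescues DESeq2 called 1 rise and 1 fall, 2 genes fell without wild-type rescue replicate 1, and 1 rose without replicate 2.

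A list of other enzymes around NADPH production and of NAD kinases, which supply its precursor, showed no common direction. Of 14 listed 12 were tested, and 2 rose and 4 fell between the rescues, where 21.0% of all genes rose and 20.3% fell. MTHFD2 and IDH2, both mitochondrial, rose by 0.17 (SE 0.04) and 0.11 (SE 0.02). MTHFD1L (-0.59, SE 0.11), MTHFD1 (-0.45, SE 0.04) and ME2 (-0.39, SE 0.04) were the 3 largest falls. MTHFD1L is a formyl-tetrahydrofolate synthetase without dehydrogenase activity and makes no NADPH, ME2 is a malic enzyme that works mainly with NAD, and MTHFD1 holds an NADP-dependent dehydrogenase. On knockdown 4 rose and 4 fell, beside 22.9% and 25.1% of all genes, with malic enzyme ME1, itself a known NRF2 target, at 0.44 (SE 0.05) and MTHFD2 at -0.56 (SE 0.04). Between the rescues ME1 was lower with the mutant, at 72.5 and 73.1 CPM against 80.9 and 79.7 in the wild-type rescue.

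**Figure D3:**
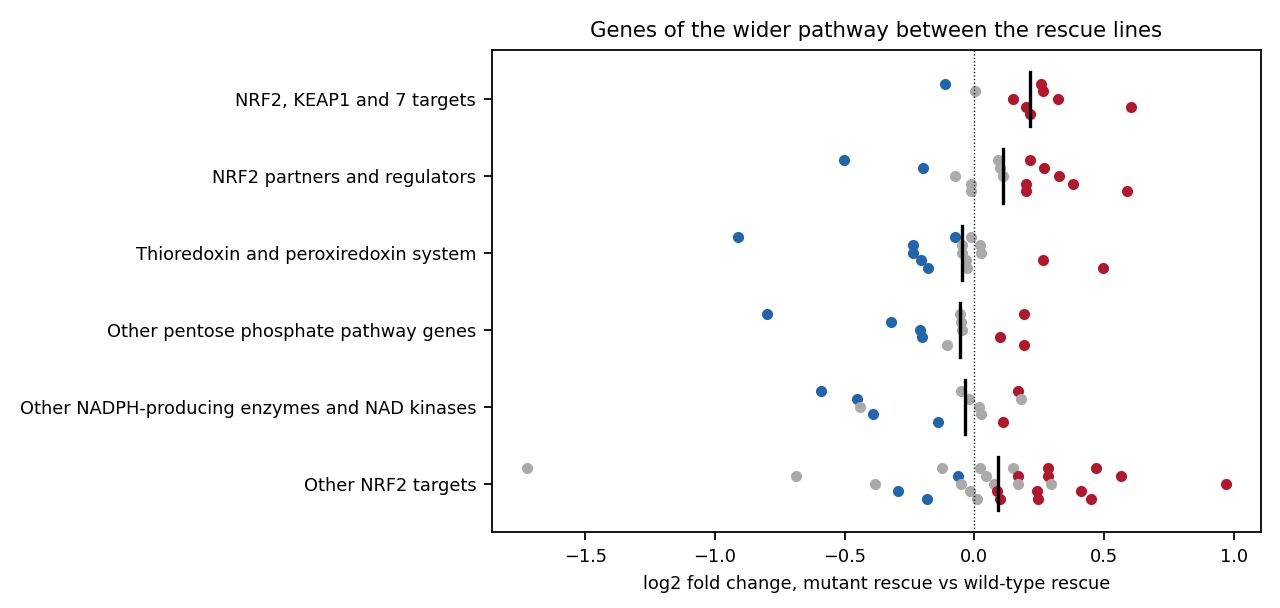
Log2 fold change between the mutant and the wild-type rescue (horizontal axis) of each tested gene in 6 lists (rows); red marks genes called higher, blue called lower, grey not called, and black bars the list medians. The 9 genes have a median of 0.21, the other NRF2 targets a median of 0.09, and the thioredoxin and pentose phosphate lists medians of -0.05 and -0.06.

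The transcripts most like the 3 members with the widest range were found by the root mean square difference in log2 CPM over the 8 libraries. Values were centred on each gene's mean. The search covered 11150 other genes that averaged 5 CPM or more, with clone and placeholder symbols (such as LOC, LINC or KIAA) left out. For OSGIN1 they were IRF1 (0.05), RIT1 (0.06) and IER5 (0.07). IRF1 is a transcription factor of the interferon response, and IER5 an immediate early gene. For NQO1 they were MAPKBP1 (0.01), SNN (0.02) and HPR (0.02). For TKT they included BRD2 (0.02) and E4F1 (0.03). BRD2 reads acetylated histones. None of these 8 genes is on the lists of the NRF2 pathway used here. With 4 lines of 2 libraries many genes can share a pattern, and likeness of this kind has no test.

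**Figure D4:**
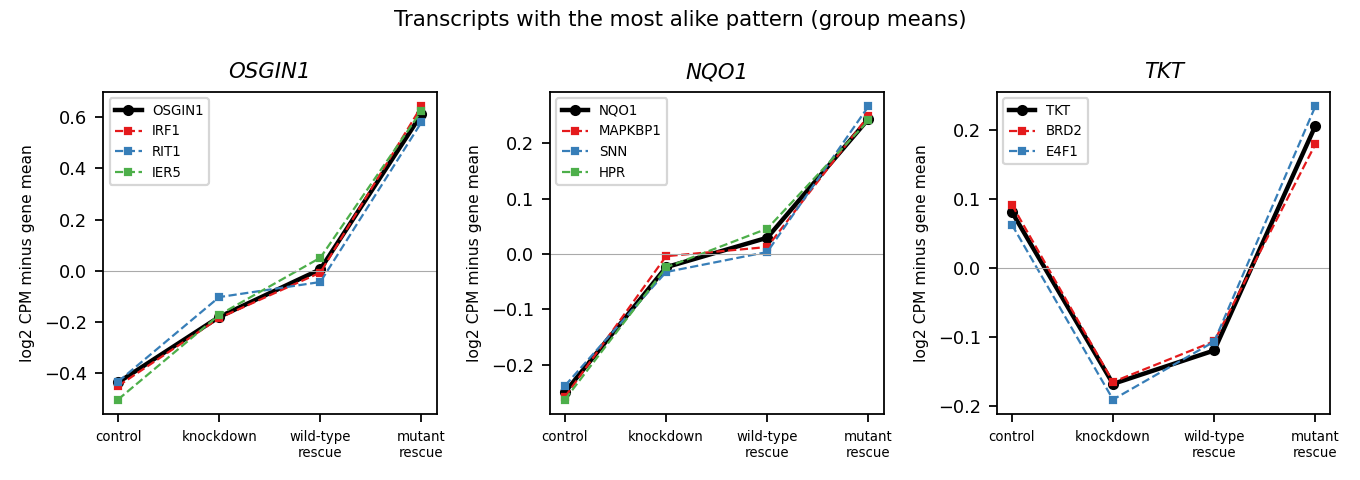
Log2 CPM minus the mean of each gene (vertical axes) in the 4 lines (horizontal axes, group means) for OSGIN1, NQO1 and TKT (black) and the most alike transcripts of each (dashed; 3 for OSGIN1 and NQO1, 2 for TKT). OSGIN1 and NQO1 climb from the control to the mutant rescue, whereas TKT is lowest in the knockdown.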

How the data were processed

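RNA was sequenced from 4 stable LNCaP lines with 2 libraries each. Total RNA was taken in TRIzol and made into libraries with a kit for stranded messenger RNA, per the labels' protocols. The submitters' processing notes name CASAVA, STAR 2.5.2b, featureCounts and DESeq2 and the genome build hg19; the annotation and strand setting are not given in the sources used here. The authors deposited 1 table of raw counts per gene with gene lengths, and no other columns.

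From these counts, edgeR 4.0.16 (R 4.3.3) was run with TMM scaling, its filter on low counts (minimum count 10, minimum total 15) and a robust quasi-likelihood fit of 1 mean per line over all 8 libraries. Tests were two-sided and p-values were adjusted by Benjamini-Hochberg over all 15289 genes tested; genes under 0.05 were called. SE was derived from the fold change and the F statistic of its test. RPKM was computed from the deposited gene lengths. The count test was also run on simulated data, in which 200 genes were changed. That run checked the code only and says nothing about the changes reported here. Totals of 15200343 to 17893241 counts and a biological coefficient of variation of 1.40% between libraries of a line let changes of few percent pass in abundant genes.

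Alternatives were DESeq2 size factors, no filter, the Wald test of DESeq2 1.42.0, a fit of only the lines compared, the replicate number as a block, a lowess correction (span 0.3) for gene length, and each library left out. The 9 genes and 5 pathway lists were chosen with earlier results of these data known. Of each list, up to 3 called genes with the largest rise and 3 with the largest fall could be named. Promoter sequences are from RefSeq (GRCh38.p14), a different build from that of the counts, and served for sequence only. Some genes of the lists are not reported here.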

Additional observations from a re-analysis of the deposited data

How the results depend on the processing

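Over 54 fold changes of the 9 genes and 14 alternative settings, 711 of 755 values kept direction and side of the threshold, 25 lost a call, 10 gained one and 9 changed sign. The changes of sign were in uncalled values near 0. With single libraries left out, KEAP1 on knockdown ranged from -0.0130 to 0.0257, and PGD from -0.0106 to 0.0299. Between wild-type rescue and knockdown NFE2L2 ranged from -0.0608 to 0.0332 and PGD from -0.00994 to 0.0195, and PGD was at -0.0017 without the filter and -0.0282 with the length trend removed. TALDO1 between the rescues ranged from -0.0300 to 0.0405. Lost calls were those of KEAP1 between the rescues, TALDO1 in 4 comparisons and SRXN1 between mutant rescue and control. The cause was not tested.

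DESeq2 called 4767 genes on knockdown (edgeR 7337), 1705 between wild-type rescue and knockdown (3673), 3763 between the rescues (6307) and 4995 between wild-type rescue and control (7531). For the mutant rescue it called 5441 against the knockdown (7909) and 6644 against the control (8993), with 8 of the 9 genes in each, where edgeR called 9. Of the 9 genes, between wild-type rescue and knockdown, edgeR called 1, edgeR with DESeq2 size factors 2, DESeq2 0, and edgeR with single libraries left out 0 to 2, each time assuming that the lone library of a line varies as the others do. Between the rescues 7 to 8 were called with single libraries left out.

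Deviations of same-numbered libraries correlated at -0.04 to 0.04 over 11572 genes. Counting noise weakens such correlations, and whether same-numbered libraries were handled together was not tested. With the replicate block, 7369 genes were called on knockdown, 3717 between wild-type rescue and knockdown, 7930 between mutant rescue and knockdown, 6340 between the rescues, 7563 between wild-type rescue and control and 9004 between mutant rescue and control. The block gave 4, 1, 9, 8, 6 and 9 of the 9 genes in these comparisons, as without it.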
